A study of Monodelphis domestica and Mus musculus with 2 samples.

Results

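IT_B is an intratelencephalic (IT) glutamatergic subclass of opossum primary visual cortex (V1), and here it comprised 126 cells of a Stereo-seq section. The members were the cells that had passed the authors' filter (at least 50 genes and 100 UMIs per cell, a UMI being a tag that marks 1 captured RNA molecule), lay in a V1 region, and carried the class label glutamatergic and the subclass label IT_B. They were 126 of the 4806 opossum V1 cells that passed this filter, of 80369 segmented cells in the opossum section, and of 200608 in the series. There were 37 IT_B cells in V1 region 1, 51 in region 2 and 38 in region 3, which was 2.62% of V1 cells and 3.36% of glutamatergic V1 cells. By region, IT_B made up 2.52%, 3.98% and 3.80% of glutamatergic cells (3.43% ± 0.797, SD, n = 3 regions of 1 animal). The regions themselves were recognised partly by the presence of IT_B, so this share depends on how they were drawn.

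The series holds a 10 µm section of cortex from 1 adult male gray short-tailed opossum (Monodelphis domestica, 6 months of age, RNA integrity number 7.1) and a 10 µm section from 1 adult male wild-type C57BL/6J mouse (postnatal day 40). Neither animal was manipulated. Stereo-seq captures polyadenylated RNA on a patterned chip, so that each cell keeps its place in the tissue. Subclass labels had been transferred from single-nucleus RNA profiles of the same species by nearest neighbours in expression space, in 3 rounds of falling stringency. IT_B was set beside 1594 IT_A and 262 IT_C cells of the same 3 regions. With 1 animal per species no test between groups was possible: the intervals given are exact 95% intervals for counting error alone, and cells and regions of 1 animal are not replicates. The labels were drawn from the expression of all genes, so differences in expression between IT_B and the other labels are descriptions of the labelled cells. Depth in the cortex was not an input to the labels.

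In mammalian sensory cortex, layer 4 is the main target of thalamic input, and its excitatory neurons pass that input on to the layers above. IT neurons send their axons within the telencephalon, in contrast to pyramidal tract and corticothalamic neurons, and in rodents they form a series of layer-specific types from layer 2/3 to layer 6. RORB, a nuclear receptor that acts as a transcription factor, is the classical marker of layer 4 and takes part in the assembly of layer 4 neurons in the rodent barrel field. The comparison with IT_A and IT_C addresses which genes set apart the opossum IT cells that were likened to layer 4.

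Depth of counting was similar among the subclasses. The 126 IT_B cells gave 212055 UMIs (median 1603 UMIs and 937 genes per cell), the IT_A cells 2325540 UMIs (median 1365) and the IT_C cells 410998 UMIs (median 1455.5). Median UMIs per IT_B cell were 1659, 2031 and 1076 in regions 1, 2 and 3, in the same order as over all V1 cells of these regions (1358, 1503 and 1048). No cell barcode was shared by the opossum and mouse sections. All levels below are UMIs of a gene per 10000 UMIs summed over the cells of a group.

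RORB was the gene that most set IT_B apart from IT_A. Its level was 7.50 in IT_B (159 UMIs, interval 6.38 to 8.76), 0.482 in IT_A and 2.04 in IT_C. By region it was 9.60, 7.18 and 5.38 in IT_B, 0.425, 0.573 and 0.411 in IT_A, and 1.66, 1.87 and 3.13 in IT_C. The lowest region of IT_B lay above the highest region of either other subclass. Pooled, RORB was 15.6-fold higher in IT_B than in IT_A (12.1 to 20.0) and 3.67-fold higher than in IT_C (2.80 to 4.84). Among all 14 V1 subclasses with at least 25 cells, glia and GABAergic types included, RORB was highest in IT_B, followed by IT_C. Vip-labelled cells came next at 1.82 (9 UMIs, 0.834 to 3.46), with the remaining subclasses at or below 1.03. Subclasses were taken here by subclass label alone, and of 38 Vip-labelled cells 19 carried the class label glutamatergic. A RORB UMI was present in 41.3% of IT_B cells (32.6 to 50.4), 4.27% of IT_A cells and 14.1% of IT_C cells. In oligodendrocytes, which should lack RORB, the share was 3.01% at a median of 1077 UMIs per cell, so the IT_A share was near that of a cell type with no RORB and the IT_B share was far above it. With each cell thinned to 300 UMIs the shares were 18.4% in IT_B, 1.17% in IT_A and 3.64% in IT_C, with 1 IT_B cell left out as too shallow.

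The other layer 4 genes known from the mouse were found in IT_B only in part. Of 13 such genes, 12 had a feature in the opossum table and 4 reached a mean level of 1 UMI per 10000 over the 3 subclasses, the minimum for a gene to be compared. Of these 4, 2 were at least 2-fold higher in IT_B than in IT_A (RORB and PAMR1) and 1 was at least 2-fold higher than in IT_C (RORB), beside 4.02% and 6.47% of all 2410 genes compared. PAMR1, a secreted protease-like protein, stood at 4.34 in IT_B, 1.94 in IT_A and 4.60 in IT_C, which made it 2.24-fold higher than in IT_A (1.77 to 2.81) with an IT_C ratio of 0.943 (0.727 to 1.22). RORA, the nuclear receptor related to RORB, was 1.72-fold higher in IT_B than in IT_A (1.49 to 1.98) and 1.69-fold higher than in IT_C (1.41 to 2.03), with levels of 8.32, 8.63 and 18.1 in the 3 regions. The netrin receptor UNC5D did not differ from IT_A beyond counting error (ratio 1.13, 0.926 to 1.37). The potassium channel KCNH5, below the minimum, gave 36 UMIs in IT_B (level 1.70, against 0.86 in IT_A and 0.36 in IT_C), and RSPO1 and IL1RAPL2 gave none. Summed over the list, the level was 31.4 in IT_B (29.6 to 36.4 among regions), 15.5 in IT_A (15.4 to 15.7) and 22.4 in IT_C (19.4 to 25.7).

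Across all genes, 97 of 2410 (4.02%) were at least 2-fold higher in IT_B than in IT_A and 57 (2.37%) at least 2-fold lower. Against IT_C, 156 (6.47%) were at least 2-fold higher and 92 (3.82%) lower. There were 67 genes (2.78%) at least 2-fold higher than in both, of which 57 were highest in IT_B in each of the 3 regions. Another 33 (1.37%) were at least 2-fold lower than in both, of which 28 were lowest in each region. The minimum level is a mean with equal weight for each subclass, so a gene could pass it through IT_B alone. Among the 12 leading genes defined below, SEMA3E and JDP2 did so, with levels below 1 in both IT_A and IT_C. So did GRM4, CDH13 and the features ENSMODG00000044042 and ENSMODG00000000312, which are given further on. These are examples and not a full list. Counts of higher and lower genes are therefore not to be weighed against each other. No gene was 2-fold higher than in IT_A and 2-fold lower than in IT_C, and 1 was the reverse, so at this fold 1 gene placed IT_B between the other subclasses. Over the same 2410 genes the rank correlation of levels was 0.771 between IT_B and IT_A, 0.699 between IT_B and IT_C and 0.858 between IT_A and IT_C. With IT_A drawn down to the UMIs of IT_C the first and last became 0.750 and 0.845. IT_B held fewer UMIs still (212055), so this did not bring the pairs to an equal count. Genes are not independent of each other, and the correlations depend on how many UMIs each subclass holds.

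**Figure D1:**
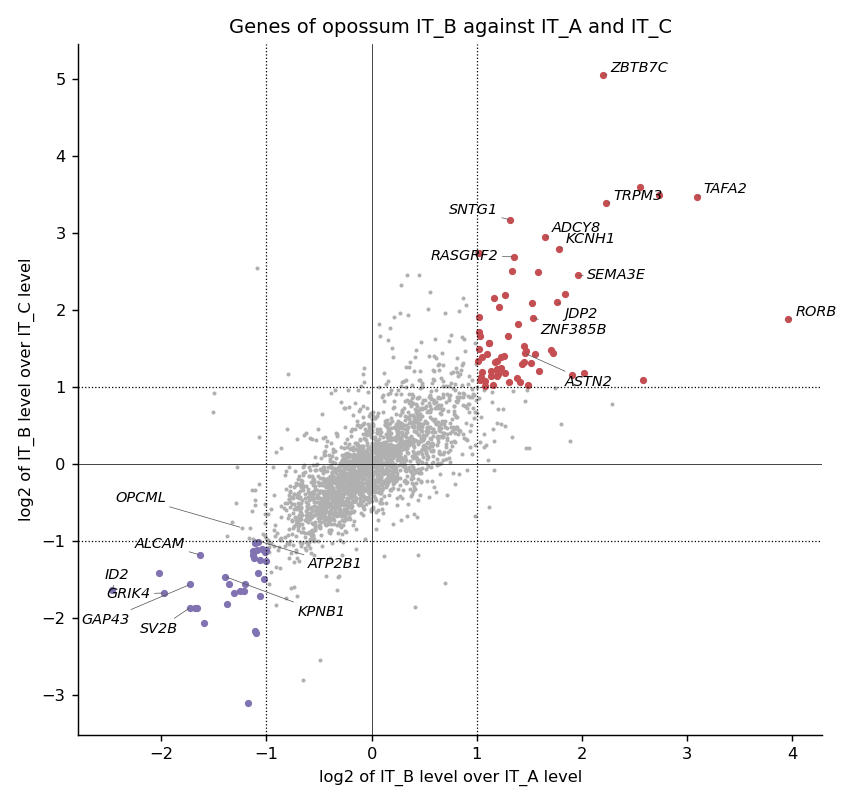
Each point is 1 of 2410 opossum genes, placed by the log2 ratio of its level in IT_B to that in IT_A (x axis) and in IT_C (y axis). Red points are the 67 genes at least 2-fold higher than in both, purple points the 33 at least 2-fold lower than in both, and names mark the 12 leading and 8 lowest genes; RORB lies farthest right and ZBTB7C highest.

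Of the genes with a symbol that were highest in IT_B in each region, which were 214 of the 2410 genes compared (8.88%, without regard to a symbol), the 12 with the highest lower limit of the ratio over the nearer of IT_A and IT_C are called the leading genes. They were TAFA2, ZBTB7C, TRPM3, KCNH1, RORB, SEMA3E, ADCY8, ZNF385B, JDP2, ASTN2, RASGRF2 and SNTG1. All 12 were also higher in IT_B than in each of the other 13 V1 subclasses with 25 cells or more, the smallest of which had 32. These genes were chosen for high levels in IT_B, and the share of all genes that rank first in IT_B was not taken.

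Among genes of secreted proteins, TAFA2 encodes a small chemokine-like protein of the brain. Its level in IT_B was 20.0, 20.4 and 18.9 in regions 1 to 3, against 1.82, 2.66 and 2.88 in IT_A and 1.91, 1.23 and 2.77 in IT_C. The IT_B regions lay within a narrow range, and every one was above every region of the other subclasses. Pooled, TAFA2 was 8.51-fold higher than in IT_A (7.48 to 9.68) and 11.1-fold higher than in IT_C (8.64 to 14.4). It was seen in 62.7% of IT_B cells (53.6 to 71.1), the largest share among the leading genes, beside 17.7% of IT_A, 14.9% of IT_C, 12.9% of astrocytes and 11.0% of oligodendrocytes. With cells thinned to 300 UMIs, the shares were 5.45% of IT_A, 5.26% of IT_C, 5.01% of astrocytes and 4.58% of oligodendrocytes, thus close to each other. The pooled level in IT_A (2.35, 2.16 to 2.55) was still above that of astrocytes (1.65, 1.34 to 2.01) and oligodendrocytes (1.48, 1.21 to 1.80). SEMA3E, a secreted semaphorin that guides axons and vessels, stood at 1.60, 2.04 and 3.01 in IT_B (45 UMIs) and at no more than 0.649 in any IT_A region and 0.723 in any IT_C region.

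Genes of transcriptional regulators were also among them. ZBTB7C, a zinc finger repressor, stood at 6.88, 7.76 and 2.80 in the IT_B regions and at 1.54, 1.40 and 1.04 in IT_A, with only 8 UMIs over all 262 IT_C cells. The IT_B level in region 3 was lower than in the others and still above every IT_A region. The pooled ratio was 4.60 to IT_A (3.74 to 5.64) and 32.9 to IT_C (16.3 to 77.9), the widest gap between IT_B and IT_C of any gene compared. ZNF385B, another zinc finger gene, stood at 7.84, 5.14 and 4.52 in IT_B and was 2.89-fold higher than in IT_A (2.35 to 3.54) and 3.72-fold higher than in IT_C (2.73 to 5.12). JDP2, a basic leucine zipper repressor of AP-1 sites, rested on 42 UMIs in IT_B (0.960, 2.04 and 3.23 by region) and was 3.39-fold and 4.28-fold higher than in IT_A and IT_C.

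Genes of ion channels and signalling enzymes stood beside them. KCNH1, a voltage-gated potassium channel of the ether-a-go-go family, stood at 15.7, 16.0 and 5.81 in IT_B, at 3.48, 4.37 and 4.35 in IT_A and at 2.42, 2.04 and 0.964 in IT_C. Region 3 of IT_B was the nearest to IT_A and remained above it. The ratio was 3.43 to IT_A (2.99 to 3.91) and 6.94 to IT_C (5.41 to 8.99). TRPM3, a calcium-permeable cation channel, was instead highest in region 3, with 4.32, 4.37 and 8.83 in IT_B. It was 4.69-fold higher than in IT_A and 10.4-fold higher than in IT_C. ADCY8, the calcium-stimulated adenylyl cyclase, depended on region 2, where its level was 8.54 against 2.24 and 2.80 in the others. Its ratio to IT_A was 3.13 (2.52 to 3.86) over all regions and 1.71 without region 2, and its ratio to IT_C 7.69 and 3.13. RASGRF2, a calcium-dependent activator of Ras that marks upper layers in the mouse, stood at 8.96, 6.79 and 10.1 in IT_B, between 2.92 and 3.48 in the IT_A regions and at or below 1.69 in IT_C.

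The scaffold and adhesion-related members were ASTN2, a membrane protein of migrating neurons, and SNTG1, a brain syntrophin that binds the dystrophin complex. ASTN2 stood at 7.20, 8.05 and 14.2 in IT_B, 2.75-fold higher than in IT_A (2.34 to 3.22) and 2.71-fold higher than in IT_C (2.16 to 3.39). SNTG1 stood at 11.2, 8.15 and 7.75, 2.50-fold higher than in IT_A (2.12 to 2.92) and 8.98-fold higher than in IT_C (6.38 to 12.9).

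**Figure D2:**
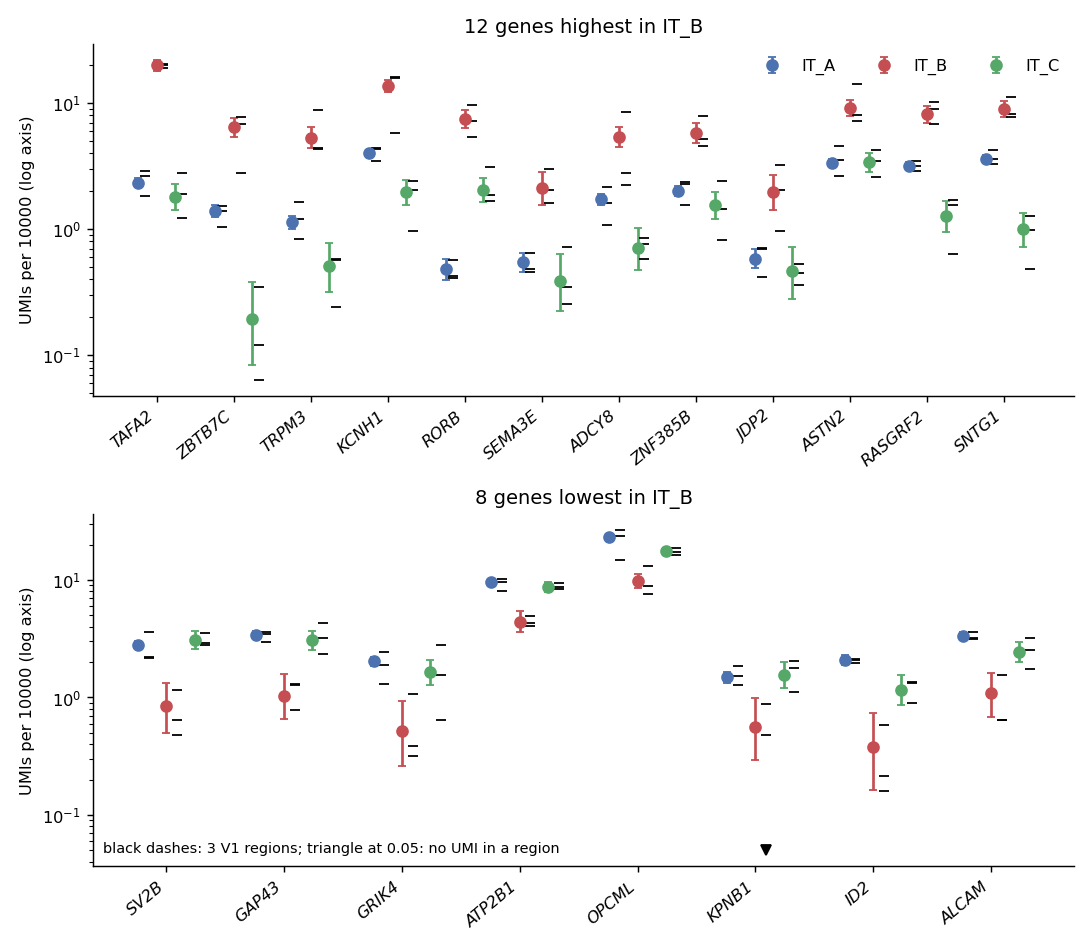
Levels (UMIs per 10000, log axis) of the 12 leading genes (top) and the 8 lowest genes (bottom) in IT_A, IT_B and IT_C; points are pooled levels with exact 95% Poisson intervals and black dashes the 3 V1 regions. TAFA2 regions of IT_B cluster at 18.9 to 20.4, whereas those of KCNH1 and ADCY8 spread from 5.81 to 16.0 and from 2.24 to 8.54.

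No leading gene was detected in all IT_B cells, the counts per cell being low. A UMI of 4.18 of the 12 genes was found per IT_B cell on average (median 4, range 0 to 10), and 2 of the 126 cells had none. IT_A cells had 1.59 on average with none in 429 cells, and IT_C cells 1.34 with none in 78. The IT_B mean was 3.95, 4.80 and 3.58 in regions 1 to 3, in the order of UMIs per cell, and after thinning to 300 UMIs it was 1.59, 1.67 and 1.73. Thinned means over all regions were 1.66 for IT_B, 0.543 for IT_A and 0.389 for IT_C.

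The 8 lowest genes, chosen by the mirror rule, were SV2B, GAP43, GRIK4, ATP2B1, OPCML, KPNB1, ID2 and ALCAM. Synaptic and axonal genes led them. SV2B, a synaptic vesicle glycoprotein of excitatory neurons, stood at 0.480, 1.16 and 0.646 in IT_B, at 3.61, 2.23 and 2.18 in IT_A and at 3.51, 2.80 and 2.89 in IT_C. No IT_B region reached the lowest region of the others. Its ratio was 0.302 to IT_A (0.178 to 0.482) and 0.275 to IT_C (0.158 to 0.452). GAP43, the growth-associated protein of axon terminals, stood at 1.28, 0.776 and 1.29 in IT_B, with ratios of 0.302 (0.188 to 0.461) and 0.338 (0.205 to 0.535). GRIK4, a high-affinity kainate receptor subunit, gave 11 UMIs in IT_B, with ratios of 0.255 (0.126 to 0.461) and 0.314 (0.149 to 0.597).

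ATP2B1, the plasma membrane calcium pump, was the most evenly lower gene, with 4.96, 4.27 and 4.09 in IT_B against 10.3, 9.70 and 8.08 in IT_A and 8.36, 8.70 and 9.52 in IT_C. The adhesion molecule OPCML stood at 13.3, 8.92 and 7.54 in IT_B against 26.5, 23.7 and 14.9 in IT_A and 16.4, 18.7 and 17.5 in IT_C. ID2, which binds and inhibits basic helix-loop-helix factors, gave 8 UMIs in all IT_B cells and a ratio of 0.181 to IT_A (0.0777 to 0.359), or 0.0893 without region 2. ALCAM, an immunoglobulin adhesion molecule, was at 0.323 of IT_A (0.204 to 0.488), or 0.186 without region 2, and KPNB1, the nuclear import receptor importin beta, was at 0.380 of IT_A and 0.363 of IT_C. Across the 14 subclasses, IT_B ranked last for 6 of the 8 genes, 13th for SV2B and 10th for OPCML. The genes were chosen for low levels in IT_B, and the share of all genes that rank last in IT_B was not taken.

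Further genes separated IT_B from only 1 of the other subclasses or more strongly from 1 of them. Against IT_A, the zinc finger gene ZMAT4 was 6.00-fold higher (4.47 to 7.99) and PRR16, whose product regulates cell size, 4.05-fold higher (3.37 to 4.86), and both were just over 2-fold higher than in IT_C (2.13 and 2.27). The AMPA receptor auxiliary subunit CACNG3 was at 0.246 of IT_A (0.126 to 0.432), and the AMPA receptor subunit GRIA4 at 0.351 of IT_A (0.263 to 0.459) but 1.59-fold higher than in IT_C (1.09 to 2.31). Against IT_C, the genes farthest below were GRIK3, a kainate receptor subunit (ratio 0.144, 0.0604 to 0.293), LDB2, a LIM domain-binding cofactor (0.172, 0.0837 to 0.318), MAP3K5, a stress-activated kinase (0.218), LMO4, a LIM-only protein (0.224, 0.129 to 0.365), and the PCP4-like gene PCP4L1 (0.305, 0.213 to 0.427). Of these 5, GRIK3, LDB2 and PCP4L1 were on the lists of deep-layer genes, LMO4 was on the upper-layer list and MAP3K5 on none.

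Genes known for other layers were next taken by list, and each count of genes past 2-fold is to be read beside the share of all genes: 4.02% higher and 2.37% lower than in IT_A, and 6.47% higher and 3.82% lower than in IT_C. Of 6 upper-layer genes compared, 5 were at least 2-fold higher in IT_B than in IT_C and 1 (LMO4) at least 2-fold lower. Against IT_A, 1 was higher and 1 lower. The median log2 ratio was 1.54 to IT_C and 0.26 to IT_A, beside -0.08 and -0.05 over all genes. CUX2, a homeobox factor of layers 2 to 4, stood at 4.64, 4.27 and 3.45 in IT_B and was 3.75-fold higher than in IT_C (2.60 to 5.48) but 1.16 times IT_A (0.921 to 1.44), which is within counting error. CALB1, the calcium buffer calbindin, was 4.71-fold higher than in IT_C (3.26 to 6.91) and 1.47-fold higher than in IT_A (1.19 to 1.81). CRH, a neuropeptide, was 2.24-fold higher than in IT_C and at 0.575 of IT_A (0.401 to 0.800). PENK, a precursor of enkephalins, gave 1 UMI in IT_B (0.05) against a level of 1.04 in IT_A.

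Of 5 layer 6 corticothalamic genes compared, 4 were at least 2-fold lower in IT_B than in IT_C (3.82% of all genes) and 1 lower than in IT_A (2.37%), with none higher. TBR1, a T-box factor of deep layers, was at 0.281 of IT_C and 0.534 of IT_A, and the zinc finger cofactor ZFPM2 at 0.305 and 0.480, while TLE4, a corepressor, stood at 1.45 and 1.60. The layer 5 IT list had 2 genes compared, the mTOR inhibitor DEPTOR (0.410 of IT_A, 0.237 to 0.663) and the HMG-box factor TOX (2.15-fold higher than in IT_A, 1.39 to 3.22), and neither passed 2-fold against IT_C. ETV1, an ETS factor of layer 5, gave 3 UMIs in IT_B (0.14, against 2.04 in IT_C). The layer 5 pyramidal tract list also had 2 compared, of which 1 (LDB2) was lower than in IT_C.

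Of 7 genes of glutamatergic identity compared, SV2B alone passed 2-fold, downward against both subclasses (1.37% of all genes), a share that rests on 1 gene. The vesicular glutamate transporter SLC17A6 stood at 0.890 of IT_A and 1.09 of IT_C, and the neurogenic factor NEUROD6 at 0.738 and 0.664. NRGN, a calmodulin-binding protein of dendritic spines, was at 0.695 of IT_A (0.647 to 0.745) and 0.991 of IT_C.

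The lists of synaptic receptors were short. Of 4 metabotropic glutamate receptors compared, 2 were at least 2-fold higher in IT_B than in IT_A (4.02% of all genes): GRM4, a group III presynaptic receptor (2.08, 3.59 and 1.29 by region, 3.30-fold, 2.40 to 4.47), and GRM7 of the same group (2.25-fold, 1.95 to 2.58). GRM4 was also 2.71-fold higher than in IT_C (1.78 to 4.18), but it passed the minimum level through IT_B alone. Of 3 kainate receptor subunits 1 (GRIK4) was lower than in IT_A (2.37% of all genes) and 2 (GRIK3 and GRIK4) lower than in IT_C (3.82%), while GRIK2 stood at 0.986 and 0.733. Of 4 AMPA subunits GRIA4 alone passed 2-fold, and of 3 NMDA subunits and 5 GABA-A subunits none did in either comparison. The NMDA subunit GRIN2A stood at 1.70 times IT_A (1.35 to 2.12) and 1.34 times IT_C (1.02 to 1.76).

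Of 13 potassium channel genes compared, 1 (KCNH1) was at least 2-fold higher than in IT_A (4.02% of all genes) and 5 than in IT_C (6.47%), with none lower in either. Besides KCNH1, they included KCND2, which carries A-type current (3.01-fold, 2.53 to 3.59), and KCNH7 (3.07-fold, 2.45 to 3.87). Summed over the list, the level was 74.0 in IT_B, 53.0 in IT_A and 43.7 in IT_C. Of 11 sodium and calcium channel genes, CACNB2, a calcium channel beta subunit, was lower against both (0.458 and 0.439), and CACNA1B was 2.12-fold higher than in IT_C.

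Synaptic adhesion and guidance genes were represented by 29 genes compared, of which 4 were at least 2-fold higher than in IT_A (4.02% of all genes) and 8 than in IT_C (6.47%), with none lower. LINGO2, a leucine-rich repeat protein, was 2.85-fold higher than in IT_A (2.10 to 3.81), the netrin receptor DCC 2.69-fold higher (1.83 to 3.85) and NLGN1, the excitatory postsynaptic neuroligin, 2.03-fold higher (1.86 to 2.21), SEMA3E being the other member. NRXN3, a presynaptic neurexin, was 5.47-fold higher than in IT_C (4.70 to 6.38) and 1.37-fold higher than in IT_A (1.26 to 1.48). Its levels of 16.0, 32.8 and 45.4 in the IT_B regions overlapped those of IT_A (24.4, 22.3 and 17.6), so the difference from IT_A had no common direction among regions. The ephrin receptors EPHA3, EPHA4 and EPHB1 were 3.80-fold, 2.83-fold and 2.47-fold higher than in IT_C. Of 9 cadherins compared, CDH13 was 3.00-fold higher than in IT_A and 5.62-fold higher than in IT_C, but it stood at 0.480 in region 1, below IT_A there (0.780), and at 3.59 and 3.88 in the others. CDH20 stood at 0.477 of IT_A and 1.27 times IT_C.

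Depth was not an input of the label transfer, although RNA of neighbouring cells can enter the profiles that were labelled. The axis of depth and its direction were set from IT_A and L6CT labels, with L6CT deeper, so the shallow place of IT_A is partly built in. The labels IT_B and IT_C did not enter that choice. IT_B cells lay at a median depth of 375 µm from the top of the V1 region (10th to 90th percentile 244 to 468 µm), with an interquartile range of 106 µm. Their median was 415, 381 and 321 µm in regions 1 to 3 (372 ± 47.5 µm, SD, n = 3 regions), each deeper than the IT_A median (200, 168 and 182 µm) and shallower than the IT_C median (522, 526 and 416 µm). The 126 IT_B cells lay between 6.71 and 508 µm, whereas the 1594 IT_A and 262 IT_C cells reached 769 and 749 µm. Such extremes depend on the number of cells. The 30 cells labelled in the first and strictest round had a median depth of 347 µm, the 67 of the second 382 µm and the 29 of the third 360 µm, all within the interquartile range of the whole subclass (313 to 420 µm).

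**Figure D3:**
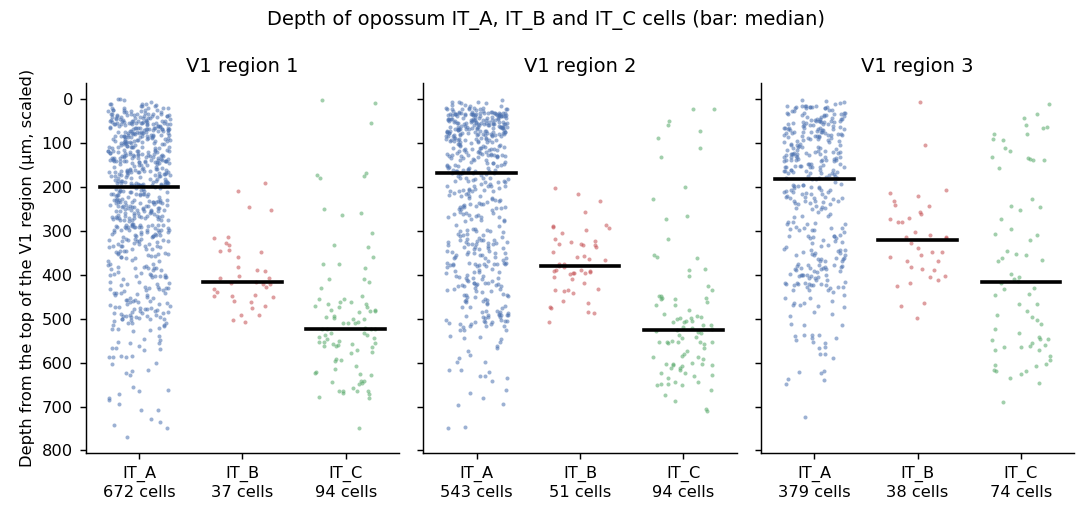
Depth (µm from the top of the V1 region, scaled to the tallest region) of every IT_A, IT_B and IT_C cell in the 3 regions; each point is a cell and bars are medians. Most IT_B cells form a band with medians of 415, 381 and 321 µm, with the shallowest at 6.71 µm, while IT_A and IT_C cells spread over most of the depth.

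Because the other IT cells also occur in this band, all 126 IT_B cells were compared with the 465 IT_A and 63 IT_C cells between 244 and 468 µm. The IT_B cells were not limited to the band, which held 100 of them. Of the 12 leading genes, 12 kept a lower limit above 1 against IT_A of the band, but 7 stayed at least 2-fold higher. The same IT_B counts had been used to choose the leading and lowest genes, so a kept direction is no independent finding. The share of all genes passing these limits is not given. RORB was 6.90-fold higher than in IT_A of the band (5.15 to 9.34) and 2.39-fold higher than in IT_C of the band (1.53 to 3.93). TAFA2 was 4.33-fold (3.71 to 5.05) and 5.0-fold higher (3.41 to 7.62). ZNF385B came closest to IT_A of the band, at 1.26-fold (1.01 to 1.57), and ASTN2 was 1.45-fold higher. Against IT_C of the band all 12 were at least 2-fold higher, but the intervals of SEMA3E and JDP2 reached below 1. Of the 8 lowest genes, 6 kept an upper limit below 1 against IT_A of the band and 2 against IT_C of the band. The exceptions against IT_A were GRIK4 (0.808, 0.373 to 1.61) and ID2 (0.488, 0.199 to 1.04). Those kept against IT_C were ATP2B1 and KPNB1. SV2B turned to 1.19 against IT_C of the band, which held 5 UMIs of it (0.426 to 4.11).

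Many of these genes were also highest at the depth of IT_B when cells of all labels were pooled. Over all V1 cells of any label, RORB stood at 0.429 above the band, 1.65 within it and 0.571 below it. Over all V1 cells, 11 of the 12 leading genes were highest in the band in each region, beside 8.55% of all genes compared, but IT_B cells themselves enter that count. Without the IT_B cells RORB still stood at 0.333, 1.04 and 0.556, with the band highest in each region. In depth bins centred at 290, 354, 419 and 483 µm it then stood at 1.21, 0.917, 0.965 and 1.13, with overlapping intervals. RORB outside IT_B thus had no peak at the IT_B median depth, and the last of these bins was centred below the band. TAFA2 without IT_B cells stood at 1.47, 3.73 and 1.01. Of the 12 leading genes, 9 were highest in the band in each region among cells without an IT_B label, beside 8.96% of all genes compared. The exceptions were KCNH1, TRPM3 and SNTG1. The lowest genes showed the reverse, with 6 of 8 lowest in the band in each region (beside 9.09% of all genes), all but KPNB1 and ALCAM. ID2 without IT_B cells stood at 2.99 above, 0.648 within and 1.63 below the band, and SV2B at 2.84, 1.17 and 3.05. RNA of nearby IT_B cells and cells of a like profile under other labels cannot be told apart in these totals.

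**Figure D4:**
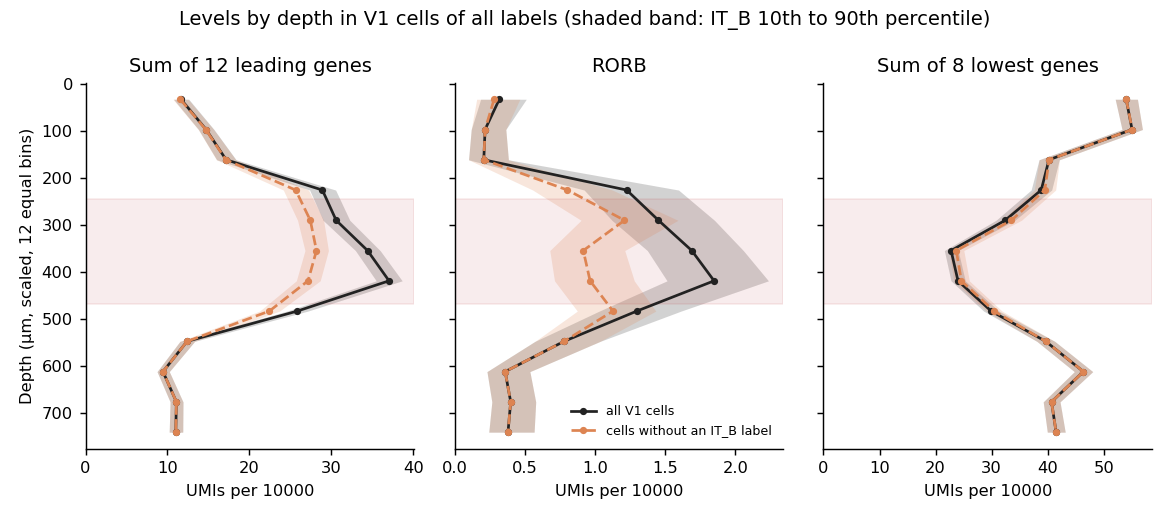
Levels (UMIs per 10000, x axis) in 12 depth bins (y axis, µm, scaled) for the sum of the 12 leading genes, RORB and the sum of the 8 lowest genes, over all V1 cells (black) and cells without an IT_B label (orange dashed), with shaded 95% Poisson intervals; the pale band runs from 244 to 468 µm. RORB over all V1 cells reaches 1.85 at a bin centre of 419 µm, and the sum of the lowest genes is 22.8 at 354 µm.

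Some cells with other labels shared part of this profile. The authors' metadata also carry labels of finer snRNA clusters, and the cluster numbered 5 there at resolution 0.3 (which may not be the subcluster given that number in the study) held 111 of the 126 IT_B cells (88.1%) together with 64 IT_A cells (4.01% of IT_A) and 3 IT_C cells. The 64 IT_A cells had a median depth of 363 µm, within the IT_B band, against 152 and 156 µm for the large IT_A clusters 1 and 3. Their summed level of the 12 leading genes was 68.6 (64.1 to 73.5), between IT_B of cluster 5 (100.1) and IT_A of other clusters (21.9). IT_A of other clusters here includes IT_A cells without a cluster label. IT_A cells of other clusters within the band stood at 35.5, which is above IT_A of other clusters at all depths. RORB stood at 2.57 in IT_A cells of cluster 5, 0.912 in IT_A of other clusters in the band and 3.13 in IT_C of the band. Of the 15 IT_B cells not labelled cluster 5, 1 was of cluster 1 and 3 of cluster 3, and the rest had no cluster label. These 15 had a sum of 37.9 (29.7 to 47.6), close to IT_A of the band. Their RORB level of 6.75 (3.59 to 11.5) was near that of the IT_B cells of cluster 5 (7.57). ZBTB7C and ADCY8 gave no UMI in these 15 cells (upper limit 1.91 for each).

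**Figure D5:**
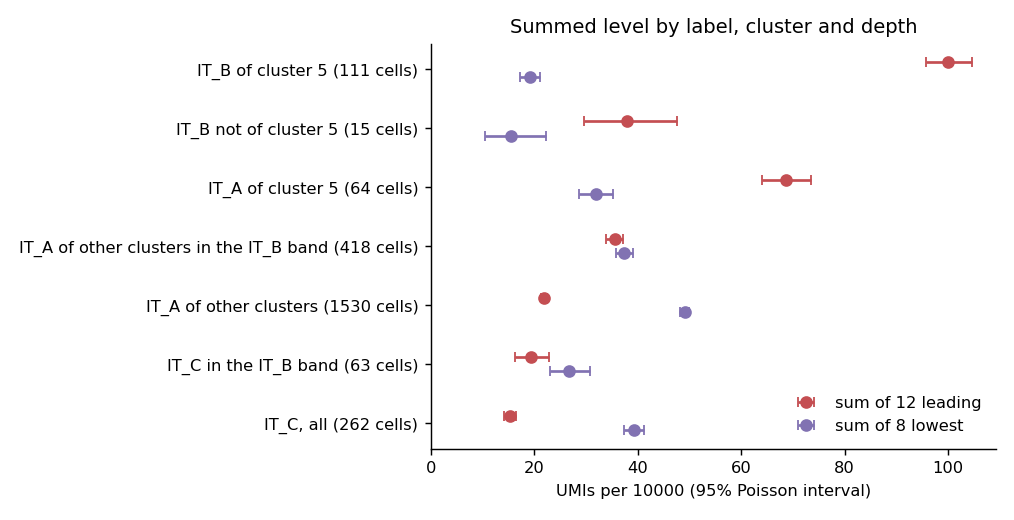
Summed levels (UMIs per 10000, x axis) of the 12 leading (red) and 8 lowest genes (purple) in cells split by subclass label, cluster and depth band (y axis), with 95% Poisson intervals. IT_A of cluster 5 (68.6) lies between IT_B of cluster 5 (100.1) and IT_A of other clusters (21.9). Cells without a cluster label are counted with those not of cluster 5.

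Within IT_B, the sum of the leading genes was 96.4, 96.4 and 87.4 in the 3 regions and 94.5 overall (90.4 to 98.7), beside 24.3 in IT_A and 15.3 in IT_C. It was 103, 99.5 and 70.4 in the cells labelled in rounds 1, 2 and 3, and RORB stood at 9.94 (7.55 to 12.9), 7.63 (6.08 to 9.44) and 3.90 (2.27 to 6.24). TAFA2, even among regions, stood at 29.0, 19.3 and 9.63 in rounds 1 to 3. ADCY8 stood at 5.49, 7.17 and 0.917 (4 UMIs in round 3, 0.250 to 2.35), so that in round 3 it was not above the level in IT_A (1.73). Cells above and below the IT_B median depth had sums of 90.9 and 97.5. Single genes were less even with depth: ZBTB7C stood at 3.47 in the shallower and 8.93 in the deeper IT_B cells, ADCY8 at 3.58 and 7.01, and SNTG1 at 6.54 and 11.0, while TRPM3 stood at 7.56 and 3.42 and ZNF385B at 7.36 and 4.47. RORB itself was level, at 7.76 and 7.27.

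Markers of other cell types were present in IT_B. GABAergic genes summed to 16.0 in IT_B (15.2 to 16.5 among regions), 11.1 in IT_A and 12.6 in IT_C, and 6 of 10 listed features were compared with none past 2-fold. SST, the interneuron peptide, alone stood at 6.32 in IT_B, 3.44 in IT_A and 3.38 in IT_C. In the band it was 7.16 in IT_A and 7.83 in IT_C, and 50.3 in Sst-labelled cells, so the IT_B level was not above that of its IT neighbours at the same depth. Oligodendrocyte genes summed to 30.1 in IT_B (25.3 and 33.3 in IT_A and IT_C), astrocyte genes to 43.1 (42.7 and 46.9), vascular genes to 1.51 (2.13 and 2.26) and microglial genes to 0.424 with P2RY12 and C1QA at 0 (0.542 in IT_A). Their part in the levels above was not tested.

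The cells around IT_B were those of the band. Within 50 µm of IT_B cells of the band, 9.17% of neighbours carried the label Pvalb (6.47, 12.4 and 7.93 by region), beside 8.97% around IT_A cells (8.52, 13.9 and 5.53) and 8.36% around IT_C cells (7.59, 12.8 and 6.61) of the band. The regions of the 3 centres overlapped. The subclass label Pvalb did not always go with a matching class label: of 354 Pvalb-labelled V1 cells, 197 carried the class label GABAergic and 142 glutamatergic. Sst-labelled cells made up 8.65%, 7.31% and 6.86%, and oligodendrocytes 11.4%, 9.27% and 10.6% of neighbours. IT_A was the most frequent label around IT_B cells (29.9% of neighbours, beside 35.1% around IT_A and 32.2% around IT_C cells), and other IT_B cells made up 7.10%, against 6.14% around IT_A and 6.03% around IT_C cells. The median distance to the nearest other IT_B cell was 38.6, 29.8 and 29.7 µm by region.

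The mouse section has a layer 4 subclass, L4, of 1879 cells in 4 V1 regions, which was set beside 1406 L2/3 and 133 L5IT cells. Of the 12 leading opossum genes, 10 were matched by symbol and 6 of these reached a mean level of 1 in the mouse. Of the 6, 5 were higher in L4 than in both L2/3 and L5IT, beside 26.2% of all 2289 mouse genes compared (34.6% of opossum genes were higher in IT_B than in both IT_A and IT_C by any size), and 1 was at least 2-fold higher than in both, beside 0.131% (0.481% for L4 over L2/3 and 1.05% for L4 over L5IT alone). That gene was Rorb (chr19:18907969-19088585 on the minus strand of GRCm39), with 3.00, 3.03, 2.51 and 2.54 in the L4 regions. It was 4.32-fold higher than in L2/3 (3.55 to 5.31) and 3.05-fold higher than in L5IT (1.94 to 5.10). Astn2 was 2.25-fold higher than in L2/3 (1.85 to 2.76) and 1.12 times L5IT, and Kcnh1 1.49 and 1.29 times, while Sntg1 was 1.11 times L2/3 and 2.15 times L5IT. Under its earlier mouse symbol Fam19a2, Tafa2 stood at 3.02 in L4, 1.32 in L2/3 and 1.53 in L5IT (2.28-fold, 1.97 to 2.65, and 1.97-fold, 1.38 to 2.90).

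Of the 8 lowest genes, 7 were compared in the mouse and 6 were lower in L4 than in both, beside 27.3% of all mouse genes. The mouse ratios lay between 0.460 and 1.39: Opcml stood at 0.746 of L2/3 and 0.827 of L5IT, Atp2b1 at 0.766 and 0.877, Sv2b at 0.926 and 0.918, and Id2 at 0.870 and 0.947. Alcam stood at 0.929 of L2/3 and 1.39 times L5IT. The species differ in section, depth, annotation and how the labels were built, so the values are set side by side and no difference between species was tested.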

How the data were processed

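Stereo-seq data of 1 opossum and 1 mouse section were used. Per the study's methods, the authors made spatial counts with the Stereo-seq Analysis Workflow on segmented cells, with opossum reads aligned to a custom genome and mouse reads to GRCm39; the submitters' processing notes name Cell Ranger. The deposited files hold raw UMI counts per gene and cell (unit counts), coordinates (2 units per µm) and metadata with the authors' filter, labels and V1 regions. Of 30613 opossum features, 11598 carry a symbol. How doublets were treated in the Stereo-seq data is not given in the sources used here, and no doublet caller was run, since segmented cells of a section can hold RNA of their neighbours.

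UMIs were summed per subclass with Python 3.11.15, numpy 2.4.6, pandas 2.3.3, scipy 1.17.1, shapely 2.1.2 and matplotlib 3.10.9. A level is UMIs per 10000 with an exact Poisson 95% interval, and a ratio of levels has the exact conditional (Clopper-Pearson) interval, as have shares of cells. Genes with a mean level of at least 1 over IT_A, IT_B and IT_C were compared, and a gene counted as called past a fold of 2. Depth was measured from the top of the smallest rectangle enclosing each V1 region and scaled to the tallest. Of the sides of the rectangle, the axis was the one that set the median of L6CT cells farthest from that of IT_A cells, with L6CT deeper. The script was tested on simulated counts.

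Named genes were those with a symbol that were (a) the 12 with the highest lower limit of IT_B over the higher of IT_A and IT_C, highest in each region, (b) the 8 with the lowest upper limit over the lower of both, lowest in each region, (c) the 6 farthest on each side of each comparison with a common direction in the regions, and (d) members of the gene lists. The members and lists were chosen with earlier results of these data known. The depth zones, the cluster 5 comparison and the mouse gene aliases were added after the data were seen. Opossum sequences and coordinates were not used here. Some members of the gene lists are not reported here by name.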

Additional observations from a re-analysis of the deposited data

Results flagged for a closer look

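RASGRF2, a calcium-dependent activator of Ras, ran in opposite directions in the 2 species against the upper-layer subclass. In the opossum it was higher in IT_B than in IT_A in each of the 3 V1 regions, with a pooled ratio of 2.56 (2.15 to 3.02). In the mouse Rasgrf2 (chr13:92027891-92269375 on the minus strand of GRCm39) was lower in L4 than in L2/3 in each of the 4 V1 regions, with a pooled ratio of 0.513 (0.440 to 0.598): it stood at 2.61, 2.19, 1.72 and 2.26 in L2/3 and at 1.00, 1.11, 1.40 and 1.27 in L4. Among 26 pairs of a gene and a comparison set side by side, this was the 1 with opposite directions in every region of both species. These pairs held only leading and lowest genes, which were chosen for a common direction in the opossum regions. The share of opposite pairs over all genes was not taken. Against the deeper subclass the pooled RASGRF2 ratio was above 1 in both species, at 6.45 over IT_C and 1.90 over L5IT. The difference between species was not tested, and the regions of a species come from 1 animal.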

How the results depend on the processing

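Of 154 genes past 2-fold against IT_A, 248 against IT_C and 67 higher than in both, the counts ranged from 183 to 234, 280 to 368 and 71 to 93 when each V1 region was left out. With IT_A and IT_C of the IT_B band alone they were 112, 505 and 39; with cells thinned to 300 UMIs, 464, 588 and 134; with a minimum level of 0.5, 430, 645 and 143, and of 2, 62, 82 and 27; and at a fold of 1.5, 550, 683 and 189. Beyond the number of genes compared and the fold itself, the cause was not tested. Filters on genes and UMIs, class label, rounds 1 and 2 and the mean over cells kept all 3 counts within 1.5 times. All 20 leading and lowest genes kept their direction in every setting except SV2B over IT_C in the band (1.19) and ALCAM over IT_C thinned (1.08). Without region 2, ID2 over IT_C was 0.176. ID2 had no UMI in thinned IT_B cells and ZBTB7C none in thinned IT_C cells. In rounds 1 and 2 alone RORB over IT_A was 22.8 and ID2 over IT_A 0.0811. The median depth of IT_B ranged from 358 to 390 µm and its interquartile range from 105 to 117 µm without each region; the range was 137 µm for round 3 alone. Among neighbours with the class label GABAergic, which many Pvalb-labelled cells lack, Pvalb cells were 41.4% around IT_B, 47.8% around IT_A and 47.7% around IT_C; among those with a GABAergic subclass label of any class (chosen after the data were seen) they were 47.4%, 49.3% and 48.7%, and the share among all neighbours of IT_B was 7.31 to 10.2% without each region. Chosen after the data were seen, leaving out the IT_A cells of cluster 5 gave 163, 244 and 68, and drawing IT_A down to the UMIs of IT_C gave 173, 247 and 61. No paired analysis was possible because there is 1 animal per species and no test.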

Other observations

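Further lists are given as counts beside the shares of all genes past 2-fold (4.02% higher and 2.37% lower than in IT_A, 6.47% and 3.82% for IT_C). Of 15 oxidative phosphorylation genes compared, none passed 2-fold in either comparison (median log2 ratio -0.13 to IT_A and -0.29 to IT_C). Of 7 immediate early genes, 1 did, against IT_C: JUN, a component of AP-1, stood at 0.493 of IT_C and 0.516 of IT_A, while EGR1, an activity-induced zinc finger factor, stood at 0.724 of IT_A and 0.977 of IT_C. Of 6 neurofilament and axon genes, GAP43 alone passed 2-fold, and the microtubule protein MAP1B stood at 0.712 of IT_A and 0.561 of IT_C.

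Of the 67 genes at least 2-fold higher in IT_B than in both IT_A and IT_C, 12 had no symbol. The feature ENSMODG00000044042 gave 58 UMIs in IT_B and was 6.63-fold higher than in IT_A (4.70 to 9.27) and 11.2-fold higher than in IT_C (5.70 to 24.7). ENSMODG00000000312 gave 75 UMIs and was 5.88-fold (4.38 to 7.83) and 12.1-fold higher (6.54 to 24.5). Both were highest in IT_B in each V1 region, and their ratios were of the size of those of TAFA2 and TRPM3. Both passed the minimum level through IT_B alone, with levels of 0.413 and 0.602 in IT_A and 0.243 and 0.292 in IT_C.

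IT_B cells of the 3 V1 regions differed from each other in single genes. Region 3 had the lowest levels of KCNH1 (5.81) and ZBTB7C (2.80) and the highest of TRPM3 (8.83), ASTN2 (14.2), RORA (18.1) and NRXN3 (45.4). Region 3 also had the lowest UMIs per cell and the shallowest median depth of IT_B, and the part of either in these levels was not tested.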
